A study of Mus musculus with 6 samples.

Results

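The proteasome genes described here are those whose symbol in the probe annotation begins with Psma, Psmb, Psmc, Psmd, Psme, Psmf or Psmg followed by a digit, and 49 such genes had a probe set assigned to them alone, of 18194 genes with such a probe set on the array. Of the 49, 47 encode subunits, activators, an inhibitor or assembly factors of the proteasome. The other 2, Psmc3ip (a meiotic recombination protein) and Psme3ip1 (a protein that binds the activator PA28γ), match by name only and are counted apart. Psme2, which encodes PA28β, was represented only by a probe set shared with another gene, so no value is given for it. Liver RNA was measured on Affymetrix mouse genome arrays in 3 male Ghrh-KO mice, which lack growth hormone-releasing hormone throughout the body and are growth hormone deficient as a result, and in 3 male control (wild-type) littermates. Both genotypes were on a mixed C57BL6 and 129SV background, ate the same chow, were 10 months old according to the methods and were fasted for 6 to 8 h before the liver was collected. Each array holds the liver RNA of 1 animal, and the arrays are numbered control 1 to 3 and Ghrh-KO 4 to 6. Values are RMA values (robust multichip average, a background-corrected and quantile-normalized summary of the probes of a probe set) on the log2 scale. Levels of different genes are not compared, since probes differ in how well they bind.

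The proteasome degrades proteins that carry ubiquitin chains. Its 20S core is a barrel of alpha rings, which form the gate, and beta rings, which hold the catalytic sites, and the 19S regulatory particle binds ubiquitin, unfolds the substrate with its ring of ATPases and feeds it into the core. In cells exposed to interferon gamma and in many immune cells, the catalytic subunits encoded by Psmb5, Psmb6 and Psmb7 are replaced in new particles by those encoded by Psmb8, Psmb9 and Psmb10, giving the immunoproteasome, whose peptides feed MHC class I presentation. Constitutive subunit genes can be induced together by the transcription factor NRF1 (Nfe2l1), and some of them by NRF2 (Nfe2l2).

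Ghrh, the disrupted gene, is a hypothalamic transcript, and its probe set was at background in liver, with values from 4.41 to 4.75 in the controls and from 4.40 to 4.57 in Ghrh-KO mice, so it does not check the genotype labels here. Hepatocyte markers were high on every array, with a mean of 12.87 to 13.13 in controls and 12.95 to 13.16 in Ghrh-KO mice over the 9 of 10 markers with a value. The array Ghrh-KO 5 stood apart: its control probe sets for the 3′ end of Gapdh read 5.27 above those for the 5′ end (log2), against 0.15 to 0.67 on the other arrays, and for beta actin the difference was 2.51 against 0.88 to 1.31. For several proteasome results that rest on this array, the value without it is given as well. In a homogenate, fewer cells of a type and less RNA per cell cannot be told apart.

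No proteasome subunit or factor passed the test between genotypes after adjustment. Of the 47, 46 passed the filter on low intensity and were tested, and 0 passed an adjusted p of 0.05 from limma (Benjamini-Hochberg over all probe sets tested), with or without a fold change above 1.5 or below 0.67, whereas 1.76% of 12469 genes tested passed, 0.786% upward and 0.97% downward. At an unadjusted p of 0.05, 2 were higher and 3 were lower in Ghrh-KO liver (10.9%), against 19.3% of all genes, 9.15% higher and 10.1% lower. The 3 Ghrh-KO values lay wholly above the 3 control values for 4 genes and wholly below for 6 (21.7%), against 28.4% of all genes, 12.7% above and 15.7% below. These shares rest on few proteasome genes, and whether they differ from those of all genes was not tested. Changes were small: 33 of the 46 were under 0.2 in size on the log2 scale, the median was -0.07 against 0.00 for all genes, and the range ran from -0.62 (Psmd7) to 0.59 (Psma7). The change was negative for 63.0% of them and for 49.5% of all genes. As medians of the deviation from the control mean, the 46 genes stood at 0.06, -0.17 and -0.07 in Ghrh-KO 4, 5 and 6. All genes tested stood at -0.02, 0.04 and -0.01. The downward lean was thus largest in Ghrh-KO 5, and the share of negative changes without that array is not given. For 30 of 46 (65.2%) the 95% interval of the change lay inside a 1.5-fold change in either direction, and the same held for 56.1% of all genes. For the other 16 the interval reached beyond a 1.5-fold change in 1 direction or both. It also included no change for 11 of them, and excluded it for Psma6, Psma7, Psmd11, Psmd2 and, narrowly, Psmf1, none of which passed after adjustment.

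**Figure D1:**
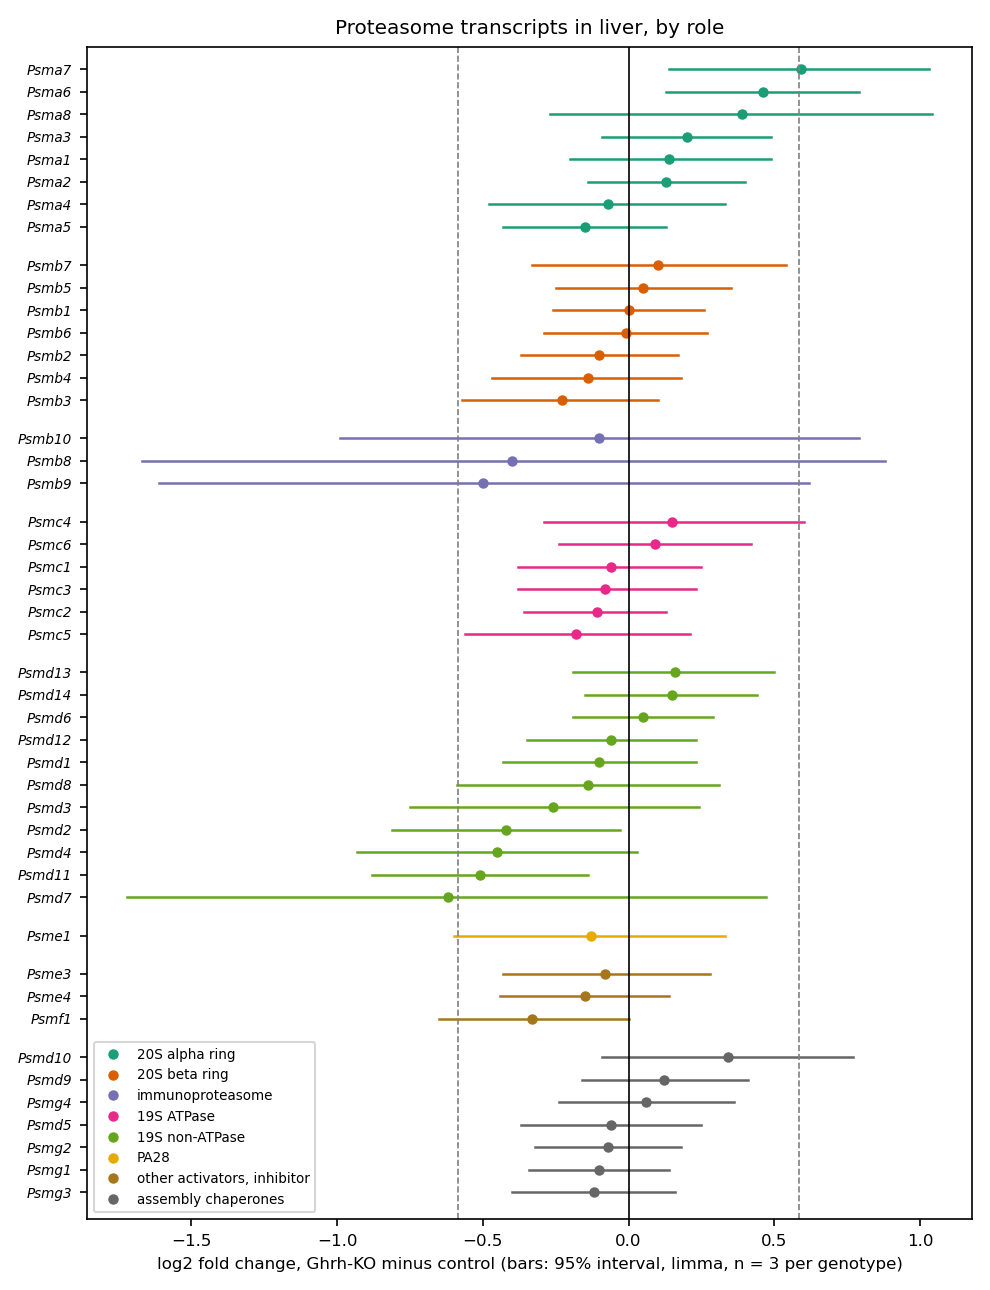
Change of each of the 46 proteasome transcripts tested (horizontal axis, log2 Ghrh-KO minus control), grouped by role (colours), with points for the limma estimate and bars for its 95% interval; dashed lines mark a 1.5-fold change. Most points lie within 0.2 of zero, and the widest bars belong to Psmd7 and to the immunoproteasome genes Psmb8, Psmb9 and Psmb10.

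The alpha ring held both transcripts with an unadjusted p under 0.05 in the upward direction. The median change of its 8 genes was 0.17, and 6 of the 8 were positive. Psma7, an alpha ring subunit, had values of 10.23, 10.11 and 10.71 on arrays control 1, 2 and 3, and of 11.01, 10.71 and 11.10 on arrays Ghrh-KO 4, 5 and 6. The highest control and Ghrh-KO 5 read nearly the same, and the genotypes just failed to overlap. The change was 0.59 (SE 0.19, adjusted p = 0.178 from limma). A second probe set of Psma7 showed 0.01 (SE 0.22, adjusted p = 0.992 from limma), so its probe sets disagree. Psma6, another subunit of the ring, read 11.30, 11.16 and 11.57 in the controls and 11.70, 11.87 and 11.84 in Ghrh-KO mice. All Ghrh-KO values were above all control values. The change was 0.46 (SE 0.14, adjusted p = 0.163 from limma), and 2 further probe sets of Psma6 showed 0.14 and 0.34. The probe set with the change of 0.46 is of a kind (x_at) that can cross-hybridize with similar transcripts. In the downward direction the largest changes of the ring were those of Psma5 (-0.15, SE 0.12) and Psma4 (-0.07, SE 0.17). Psma3 also lay apart, with 12.02, 11.80 and 12.04 against 12.26, 12.05 and 12.15, a change of 0.20 (SE 0.12, adjusted p = 0.430 from limma) that was 0.12 without control 2. Psma8, a subunit of the testis, was dim and ranged from 5.22 to 6.31 with overlapping genotypes.

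Constitutive beta ring transcripts were nearly level between genotypes. Their median change was -0.01 over 7 genes, with 6 of 7 under 0.2 in size. Psmb5, which encodes the chymotrypsin-like site, read 11.05, 10.99 and 11.23 in controls and 11.28, 11.10 and 11.03 in Ghrh-KO mice (0.05, 95% interval -0.25 to 0.35). Psmb6, the caspase-like site, read 11.27, 11.40 and 11.52 in controls and 11.45, 11.29 and 11.44 in Ghrh-KO mice (-0.01, 95% interval -0.29 to 0.27). Psmb7, the trypsin-like site, read 9.72, 9.49 and 9.97 in controls and 9.88, 9.54 and 10.08 in Ghrh-KO mice (0.10, 95% interval -0.33 to 0.54). For each of these catalytic genes the genotypes overlapped and the interval excluded a 1.5-fold change. The structural subunits Psmb3 (-0.23, SE 0.14, adjusted p = 0.422 from limma) and Psmb4 (-0.14, SE 0.14) had the largest downward changes. The 3 Ghrh-KO values of Psmb3, 11.41, 11.41 and 11.37, lay below the control values of 11.51, 11.90 and 11.47, of which control 2 was the highest, and the change without it was -0.10. The sign for Psmb4 depended on the probe set, and its second probe set showed 0.20. Without Ghrh-KO 5 the change of Psmb4 on the first was -0.02.

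The immunoproteasome transcripts showed a different pattern: they varied more between animals of the same genotype than nearly all other genes on the array. Psmb8, the inducible chymotrypsin-like subunit, read 10.08, 8.82 and 8.25 in controls and 9.51, 7.91 and 8.54 in Ghrh-KO mice. Psmb9, the inducible counterpart of Psmb6, read 9.75, 8.53 and 8.40 in controls and 9.04, 7.54 and 8.61 in Ghrh-KO mice. Psmb10, the counterpart of Psmb7, read 10.05, 9.32 and 9.08 in controls and 10.05, 8.69 and 9.40 in Ghrh-KO mice. Control 1 and Ghrh-KO 4 were the highest pair of arrays for all 3 genes, Ghrh-KO 5 was the lowest for all 3, and the genotypes overlapped widely. The pooled within-genotype SD was 0.87 for Psmb8, larger than that of 98.9% of genes tested, 0.76 for Psmb9 (98.3%) and 0.60 for Psmb10 (97.0%). Its median was 0.16 over the 32 constitutive core and 19S genes and 0.18 over all genes. Among the 19S genes Psmd7 also spread widely, with a pooled SD of 0.75 (98.3%). Psme1 (PA28α, an interferon-inducible activator of the core) followed with 11.23, 10.72 and 10.72 in controls and 11.06, 10.62 and 10.59 in Ghrh-KO mice, and control 1 and Ghrh-KO 4 were again the highest pair.

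Genotype changes of these genes were not distinguishable from this spread. The changes were -0.40 for Psmb8 (SE 0.54, adjusted p = 0.727), -0.50 for Psmb9 (SE 0.47, adjusted p = 0.606), -0.10 for Psmb10 (SE 0.38, adjusted p = 0.910) and -0.13 for Psme1 (SE 0.20, adjusted p = 0.749), all from limma. Without Ghrh-KO 5 they were -0.03 for Psmb8, -0.07 for Psmb9, 0.24 for Psmb10 and -0.07 for Psme1. The 95% interval of Psmb8 over all arrays ran from -1.67 to 0.88, so that neither a rise nor a fall of 1.5-fold could be told from no change. Each inducible gene was also set against its constitutive counterpart on the same array, as the difference between their log2 values. The change in that difference between genotypes was -0.45 for Psmb8 minus Psmb5, -0.49 for Psmb9 minus Psmb6 and -0.21 for Psmb10 minus Psmb7, with exact two-sided permutation p of 0.6, 0.6 and 0.8 (n = 3 per genotype, each 0.8 after adjustment over the 3 pairs), where 0.1 is the smallest p that 3 against 3 arrays allow. Without control 1 these changes became 0.09, 0.01 and 0.08, and without Ghrh-KO 5 they became -0.10, -0.11 and -0.01, so that either array decided their size and control 1 their sign. Psmb11, the thymus-specific counterpart, stayed below the intensity filter at 3.69 to 4.07.

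**Figure D2:**
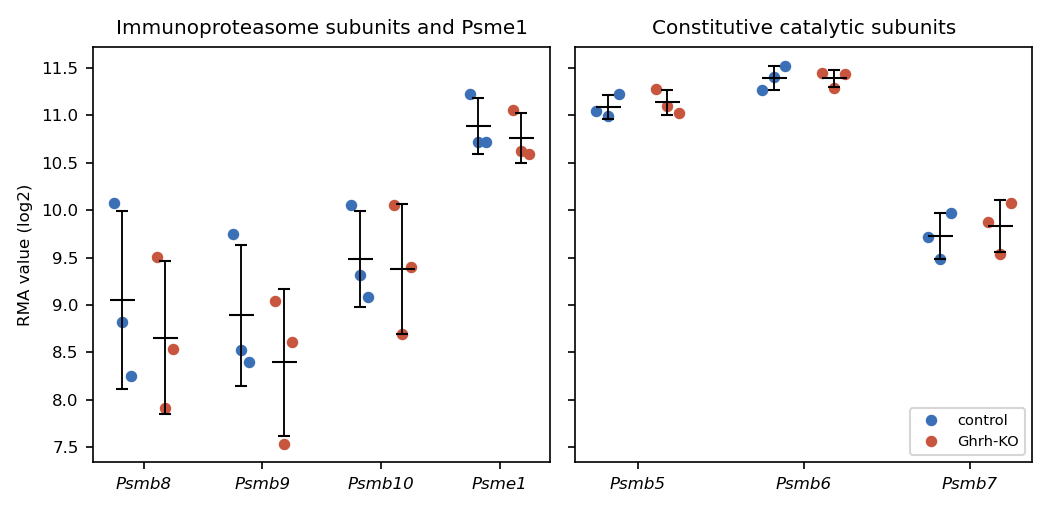
RMA values (vertical axis, log2) of Psmb8, Psmb9, Psmb10 and Psme1 (left) and of Psmb5, Psmb6 and Psmb7 (right) on the 6 arrays; points are animals in replicate order, horizontal marks are means and bars are SD (n = 3). The immunoproteasome genes spread widely in both genotypes with control 1 and Ghrh-KO 4 at the top, while the constitutive genes stay close together.

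Markers of Kupffer cells and other macrophages, which express the immunoproteasome, were mostly highest on the same pair of arrays as these genes. All 12 of 12 markers were tested and 0 were called between genotypes. With all arrays their median change was 0.28 and 9 of the 12 were positive, whereas Psmb8, Psmb9 and Psmb10 were all negative with a median of -0.40. Without Ghrh-KO 5 every marker except Marco (-0.74) was positive. The changes of Psmb8, Psmb9 and Psmb10 were then -0.03, -0.07 and 0.24, with a median of -0.03, so they were no longer all negative. The mean marker level on an array ran from 7.42 to 8.79 in controls and from 7.31 to 8.84 in Ghrh-KO mice. None of the defining markers was at background on every array, although Timd4 and Marco read 4.28 and 4.54 in Ghrh-KO 5. Control 1 and Ghrh-KO 4 were the highest pair for 10 of the 12 markers, for 6 of 17 tested interferon gamma response genes (35.3%) and for 8 of 13 MHC class I processing genes, against 5.08% of all genes. They were also the highest pair for 5 of the 17 genes of the 19S particle (29.4%) and for 2 of the 15 constitutive core genes (13.3%). This pair of arrays was singled out after the values were seen. Clec4f, a lectin of Kupffer cells, read 9.60, 7.96 and 8.32 in controls and 9.50, 8.39 and 8.94 in Ghrh-KO mice. Tap1, the peptide transporter gene that lies between Psmb9 and Psmb8, read 8.12, 6.76 and 6.85 in controls and 7.32, 6.36 and 6.96 in Ghrh-KO mice. Both repeat the high values of control 1 and Ghrh-KO 4. As medians of the deviation from each gene's mean over the 6 arrays, the macrophage markers stood at 0.76, -0.56 and -0.54 in controls and 0.88, -0.54 and 0.18 in Ghrh-KO mice, and Psmb8, Psmb9 and Psmb10 at 1.11, -0.11 and -0.35 and at 0.61, -0.94 and -0.03. Psmb5, Psmb6 and Psmb7 stayed between -0.13 and 0.13. Of 16 lymphocyte markers 4 were tested, and the means over those with a value were 4.60 to 4.72 in controls and 4.83 to 4.89 in Ghrh-KO mice. Ptprc (CD45, which marks all leukocytes) was above background, with 8.49, 6.96 and 7.07 in controls and 8.80, 8.09 and 8.39 in Ghrh-KO mice (0.92, SE 0.41, adjusted p = 0.295 from limma), and control 1 and Ghrh-KO 4 were its highest pair too. The part of the macrophage content of the samples in the spread of these genes was not tested.

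**Figure D3:**
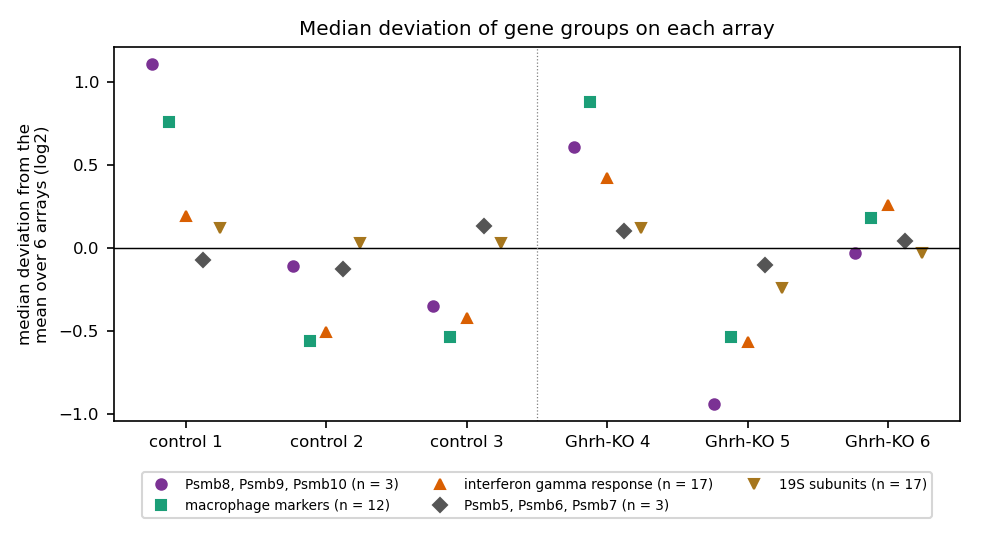
Median deviation from each gene's mean over the 6 arrays (vertical axis, log2) for gene groups on each array (horizontal axis), with the number of genes in the legend. The immunoproteasome genes reach 1.11 in control 1 and -0.94 in Ghrh-KO 5, the macrophage markers are also highest in control 1 and Ghrh-KO 4, and Psmb5, Psmb6 and Psmb7 stay between -0.13 and 0.13.

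The promoters of 2 inducible genes and of their constitutive counterparts are shown because these pairs differ in their spread across animals. Promoters came from RefSeq (GRCm38.p6), which matched 41 of the 49 genes, and motifs were searched on both strands from 250 bases before to 50 after the start. The 250 bases before the start are printed in the direction of transcription, with motif matches in capitals. The positions are chr17:34197945-34198194 (plus strand) for Psmb8, chr17:34187331-34187580 (minus strand) for Psmb9, chr14:54617996-54618245 (minus strand) for Psmb5 and chr11:70525107-70525356 (plus strand) for Psmb6.
Psmb8: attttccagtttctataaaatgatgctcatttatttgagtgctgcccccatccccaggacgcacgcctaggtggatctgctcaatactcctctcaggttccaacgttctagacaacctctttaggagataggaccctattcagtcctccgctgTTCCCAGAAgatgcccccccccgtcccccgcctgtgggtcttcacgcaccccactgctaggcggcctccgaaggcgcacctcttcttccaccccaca
Psmb9: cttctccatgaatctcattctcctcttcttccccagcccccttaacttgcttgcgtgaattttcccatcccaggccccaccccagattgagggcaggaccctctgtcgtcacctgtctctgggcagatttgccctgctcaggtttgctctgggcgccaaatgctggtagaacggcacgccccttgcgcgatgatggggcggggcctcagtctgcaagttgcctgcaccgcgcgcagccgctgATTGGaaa
Psmb5: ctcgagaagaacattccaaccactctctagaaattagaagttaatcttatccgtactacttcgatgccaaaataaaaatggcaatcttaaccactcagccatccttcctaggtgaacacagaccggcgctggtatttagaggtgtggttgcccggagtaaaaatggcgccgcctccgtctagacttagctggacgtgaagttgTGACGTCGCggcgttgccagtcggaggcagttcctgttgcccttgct
Psmb6: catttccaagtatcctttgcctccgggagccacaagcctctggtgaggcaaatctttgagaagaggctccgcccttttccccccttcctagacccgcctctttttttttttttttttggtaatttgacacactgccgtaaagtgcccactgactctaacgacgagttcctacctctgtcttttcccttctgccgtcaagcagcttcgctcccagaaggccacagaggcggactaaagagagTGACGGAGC

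In Psmb8 the capitals mark the letters TTCNNNGAA, a pattern bound by STAT factors, which begin 97 bases before the start. In Psmb9 they mark CCAAT, the box bound by NFY, on the opposite strand, where it reads ATTGG in the printed strand. In Psmb5 and Psmb6 they mark TGACNNNGC, the core of the antioxidant response element, which NRF1 and NRF2 bind with small MAF partners. It begins 47 bases before the start of Psmb5 and 9 before that of Psmb6. TGACNNNGC was found in 6 of 39 matched subunit and factor genes (15.4%) and in 12.4% of 32851 promoters of the same length, TTCNNNGAA in 3 of 39 (7.69%) and 8.30%, and CCAAT in 14 of 39 (35.9%) and 37.4%. The core of the interferon-stimulated response element was found in 5 of 39 (12.8%, Psme1, Psmd4, Psmd9, Psmg4 and Psmb3) and in 3.44% of all promoters, and in none of the promoters of Psmb8, Psmb9, Psmb10 and Psmb11. A match is a run of letters only. Psmb9 and Psmb8 flank Tap1 on chromosome 17, with Tap2 next, and Psme1 and Psme2 lie close together on chromosome 14, a short way from Irf9.

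Transcripts of the 19S regulatory particle had mostly negative differences (Ghrh-KO minus control), which were small, did not pass the test and rested in part on the array Ghrh-KO 5. Of 17 genes, 12 had a negative change and the median was -0.10. The ATPases, which form the unfolding ring, had a median of -0.07, and none was over 0.2 in size on the probe set chosen for each gene. Psmc4 (0.15, SE 0.19) and Psmc6 (0.09, SE 0.14) were at the upper end, and Psmc5 (-0.18, SE 0.16) and Psmc2 (-0.11, SE 0.10) at the lower. Without Ghrh-KO 5 the change of Psmc5 was -0.03. Further probe sets of Psmc6 showed 0.29 and 0.58, and another of Psmc4 showed -0.26 with no overlap, so its sign depended on the probe set. Psmc2 read 11.15, 11.12 and 11.06 in controls and 11.04, 10.92 and 11.03 in Ghrh-KO mice, a narrow gap between non-overlapping genotypes.

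Without Ghrh-KO 5 the median of the ATPases was 0.02. Among the 11 non-ATPase subunits the median was -0.14 and 8 were negative, and without Ghrh-KO 5 the median was -0.03. Psmd11, a subunit of the lid, read 12.33, 12.16 and 12.25 in controls and 12.03, 11.49 and 11.70 in Ghrh-KO mice. All Ghrh-KO values were below all control values, with Ghrh-KO 5 the lowest. The change was -0.51 (SE 0.16, adjusted p = 0.166 from limma). Of 7 probe sets of Psmd11 tested, another showed -0.56 (SE 0.22, adjusted p = 0.249 from limma) with overlapping genotypes, and a further pair showed -0.04 and -0.06, so the probe sets disagree. The probe set with the change of -0.51 is an s_at probe set. With x_at and s_at probe sets left out, the change of Psmd11 was -0.04. Psmd7, the partner of the lid's deubiquitinase, read 9.36, 8.86 and 9.21 in controls and 9.33, 7.37 and 8.86 in Ghrh-KO mice. Ghrh-KO 5 alone was low. Its change of -0.62 (SE 0.47, adjusted p = 0.507) became -0.05 (SE 0.21, adjusted p = 0.938 from limma) without that array. A second probe set of Psmd7 read 6.80, 7.28 and 6.91 against 6.48, 6.46 and 6.49, with no overlap and a change of -0.52 (SE 0.15, adjusted p = 0.147 from limma). At the upper end were Psmd13 (0.16, SE 0.15) and Psmd14 (0.15, SE 0.13), which encodes that deubiquitinase.

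A further 3 genes of the 19S particle, named after their values were seen, also read low in Ghrh-KO 5. Psmd2, a scaffold subunit of the 19S base, read 11.09, 11.12 and 11.09 in controls and 10.89, 10.33 and 10.83 in Ghrh-KO mice. The control values were almost equal and the genotypes did not overlap. Its change was -0.42 (SE 0.17, adjusted p = 0.252) with all arrays and -0.24 (SE 0.11, adjusted p = 0.382 from limma) without Ghrh-KO 5. Psmd4, a ubiquitin receptor, had a difference of -0.45 (SE 0.20) with all arrays and of -0.23 (SE 0.14) without, and its second probe set read 7.01 in Ghrh-KO 5 against 9.83 to 10.29 elsewhere. That of Psmd3 was -0.26 with all arrays and -0.03 without.

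Across all classes, 21 of the 46 genes (45.7%) had their lowest value in Ghrh-KO 5, against 21.1% of all genes tested, and 5 had their highest value there. The share was 64.7% of the 19S genes (11 of 17) and 26.7% of the constitutive core genes (4 of 15). Without this array, 0 of 46 passed an adjusted p of 0.05 from limma, against 1.33% of all genes. At an unadjusted p of 0.05, 2 were higher and 1 was lower, against 16.2% of all genes. These were Psma7 (0.70, SE 0.20, adjusted p = 0.182 from limma), Psma6 (0.42, SE 0.16, adjusted p = 0.285 from limma) and Psmd11 (-0.38, SE 0.15, adjusted p = 0.292 from limma). The part of RNA quality in the low values of Ghrh-KO 5 was not tested.

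**Figure D4:**
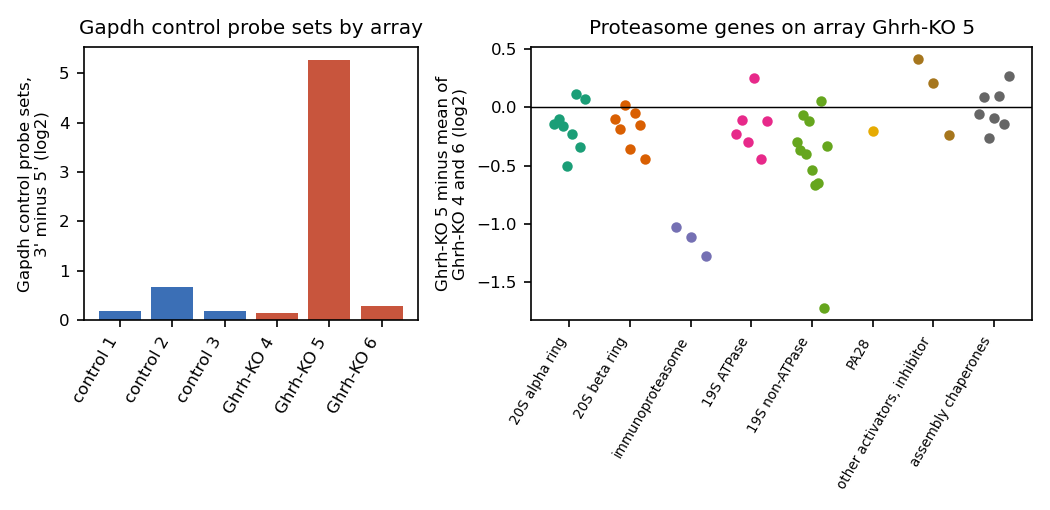
Left, difference between the 3′ and 5′ control probe sets of Gapdh (log2) on each array; right, value in Ghrh-KO 5 minus the mean of Ghrh-KO 4 and 6 (log2) for each proteasome gene by role, 1 point per gene. Ghrh-KO 5 stands at 5.27 against 0.15 to 0.67 on the other arrays, and its immunoproteasome and most 19S values lie below those of the other Ghrh-KO animals, with Psmd7 the lowest point.

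Activators, the inhibitor and assembly factors showed small differences, none of which passed the test. Psmf1 (PI31, a regulator first described as an inhibitor of the core) read 8.69, 8.41 and 8.43 in controls and 8.34, 8.03 and 8.18 in Ghrh-KO mice, just short of overlap. The change was -0.33 (SE 0.14, adjusted p = 0.275 from limma), while 3 further probe sets showed -0.20, 0.00 and 0.05. Without Ghrh-KO 5 the change of Psmf1 was -0.25 (SE 0.14, adjusted p = 0.473 from limma). The difference was -0.15 (SE 0.12) for Psme4 (PA200) and -0.08 (SE 0.15) for Psme3 (PA28γ). Of the 7 assembly chaperones, Psmd10 (gankyrin, a chaperone of the 19S base) read 7.66, 7.06 and 7.68 in controls and 7.80, 7.77 and 7.86 in Ghrh-KO mice. All its Ghrh-KO values were higher and control 2 was the lowest, and the change was 0.34 (SE 0.18, adjusted p = 0.363 from limma). Without control 2 it was 0.14. Psmd9, another base chaperone, had a difference of 0.12 (SE 0.12), and its second probe set one of 0.44 (SE 0.11, adjusted p = 0.121 from limma). Psmg3 (-0.12, SE 0.12) and Psmg1 (-0.10, SE 0.10), which help to assemble the core, were at the lower end. Of the genes that match by name only, Psme3ip1 read 8.84, 8.84 and 8.78 against 8.64, 8.43 and 8.33 (-0.35, SE 0.12, adjusted p = 0.199 from limma), and Psmc3ip was at background.

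The pathway around the proteasome was also mostly without called genes. Of 25 genes for proteasome-associated proteins and ubiquitin shuttles, 21 were tested and 0 were called. At an unadjusted p of 0.05, 1 was higher and 2 were lower (14.3%, against 19.3% of all genes). The difference of Pomp, the maturation factor of the core, was 0.05. Of 32 genes for ubiquitin and its E1 and E2 enzymes, 26 were tested and 0 were called, with 3 higher and 2 lower at an unadjusted p of 0.05 (19.2%, against 19.3% of all genes).

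Of 10 genes that regulate NRF1 and NRF2, 1 was called, against 1.76% of all genes. At an unadjusted p of 0.05, 2 were higher and 1 was lower (30%, against 19.3% of all genes). The genotypes did not overlap for 50% of them, against 28.4% of all genes. Syvn1 (HRD1, the ubiquitin ligase of endoplasmic reticulum-associated degradation, which targets NRF1) read 11.04, 11.19 and 10.89 in controls and 9.85, 9.41 and 9.63 in Ghrh-KO mice. It fell by 1.41 on the log2 scale (SE 0.15, adjusted p = 0.00813 from limma), a larger change than that of any proteasome gene. Nfe2l1 itself read 8.83, 8.79 and 8.76 in controls and 8.91, 6.99 and 8.68 in Ghrh-KO mice, low in Ghrh-KO 5 alone. Its difference was -0.60 (SE 0.47, adjusted p = 0.521 from limma), and 0.00 (SE 0.13) without that array. The difference was 0.21 (SE 0.25) for Nfe2l2 and, for Keap1, the repressor of NRF2, it was -0.36 (SE 0.16, adjusted p = 0.303 from limma). Of 25 NRF2 target genes 22 were tested, 1 was called higher and 1 lower, against 1.76% of all genes called. At an unadjusted p of 0.05 the share was 36.4% (5 higher and 3 lower), against 19.3% of all genes, and for 40.9% the genotypes did not overlap, against 28.4%. Nqo1, a quinone reductase, rose from 6.22, 5.89 and 6.29 in controls to 7.25, 7.49 and 7.32 in Ghrh-KO mice (1.22, SE 0.14, adjusted p = 0.0126 from limma). Gstp1, a glutathione transferase, fell from 14.15, 14.19 and 14.14 to 13.45, 13.50 and 13.53 (-0.67, SE 0.10, adjusted p = 0.0286 from limma). Without Ghrh-KO 5 the calls of Syvn1 and Nqo1 held (adjusted p = 0.0168 and 0.0294 from limma), while that of Gstp1 was lost (adjusted p = 0.0603 from limma) at the same difference. The median change of the tested NRF2 target genes was 0.08 and that of the constitutive core genes was 0.05.

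Genes of MHC class I processing and the interferon gamma response share inducers with the immunoproteasome. With all arrays they gave 0 calls among 13 of 13 and among the 17 tested genes of the latter list that are not proteasome genes. Of all genes, 1.76% were called. In the interferon list 6 of 17 were higher and 1 was lower at an unadjusted p of 0.05, against 9.15% and 10.1% of all genes, and the median change was 0.09. Irf1, which drives immunoproteasome genes, had a difference of 0.01 with all arrays and of 0.30 (SE 0.18) without Ghrh-KO 5. Without that array Cxcl9 (3.34, SE 0.51, adjusted p = 0.0424 from limma) and Ciita (0.82, SE 0.13, adjusted p = 0.0465 from limma) of the interferon list were called higher. Of all genes, 1.33% passed an adjusted p of 0.05 from limma without that array. With all arrays their differences were 2.41 (adjusted p = 0.194 from limma) and 0.57 (adjusted p = 0.245 from limma). Ciita was dim, at 4.55 to 5.54.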

How the data were processed

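Liver RNA of 3 control and 3 Ghrh-KO male mice was hybridised to 1 array each. The authors ran RMA, and the deposited log2 values cover 45101 probe sets, and the software version is not given in the sources used here. The MAS 5.0 detection filter of the methods was not repeated, since RMA values hold no detection calls. After removal of 64 control probe sets, those brightest on average were tested instead, as many as the methods state. Of these, 21387 had 1 gene in the annotation, 596 had several and 3162 were not listed. Each gene was read from its 1-gene probe set with the highest mean.

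The genotypes were compared by limma (version 3.58.1, functions lmFit and eBayes, under R 4.3.3), and p was adjusted after Benjamini and Hochberg across every probe set tested. Calls needed an adjusted p under 0.05 and a fold change above 1.5 or below 0.67. The script was tested on simulated data. The proteasome genes, structural classes and pathway and marker lists were chosen with earlier results of these data known. Genes named with values were the catalytic beta subunits, Psme1, the 2 largest changes in each direction of each structural class, genes below the filter, called genes of the pathway lists and a few regulators; others are named because of their values. Alternatives changed the filter, the normalization, the probe set, the variance model and the arrays used. RMA makes array distributions alike, so a change shared by most transcripts is not visible. Python 3.11.15 with matplotlib 3.10.9 drew the figures.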

Additional observations from a re-analysis of the deposited data

How the results depend on the processing

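No proteasome gene passed an adjusted p of 0.05 under any of the alternatives run, and the lowest value was 0.0678 for Psmd11 with array weights. The number of genes at an unadjusted p under 0.05 (5 with all arrays) was 8 with the probe set of lowest p, 3 without x_at and s_at probe sets, 2 without control 2 and Ghrh-KO 5 together, and 2 to 7 when each array was left out in turn (2 without control 2, 3 without control 1, control 3, Ghrh-KO 5 or Ghrh-KO 6, and 7 without Ghrh-KO 4). The share of all genes at that p was 19.3% with all arrays, 25.5% with the probe set of lowest p and 19.1% without x_at and s_at probe sets. It was 15.7% without control 2 and Ghrh-KO 5, and 15% to 18.7% when each array was left out in turn. The median change of the assembly chaperones was -0.02 after median centring and -0.10 to 0.01 over the left-out arrays, and that of the other activators and inhibitor was -0.28 without control 2 and Ghrh-KO 5. When each array was left out in turn, the change in the pair differences ran from -0.92 to 0.09 (Psmb8 minus Psmb5), -0.80 to 0.01 (Psmb9 minus Psmb6) and -0.53 to 0.08 (Psmb10 minus Psmb7). The last was 0.03 without control 2 and Ghrh-KO 5. The cause was not tested.

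Some changes of single genes turned sign. With the probe set of lowest p they were -0.26 for Psmc4, -0.21 for Psmd6 and 0.20 for Psmb4, and with the mean over probe sets -0.05, -0.08 and 0.03. Without control 2 and Ghrh-KO 5 the changes were 0.04 for Psmc5, 0.02 for Psmd1, 0.07 for Psmd3, 0.00 for Psma4 and Psmb1, -0.03 for Psmg4, 0.05 for Psmb6 and 0.16 for Psmb10. With array weights they were -0.01 for Psmg4 and Psmb1, -0.03 for Psmb5, 0.02 for Psmb6 and 0.01 for Psmb10. Quantile normalization gave 0.00 for Psmb1, and median centring 0.04 for Psmb6. Over single arrays left out, ranges that crossed zero were widest for Psmb8 (-0.82 to 0.12) and Psmb10 (-0.44 to 0.24). The others were Psma4 (-0.17 to 0.09), Psmb1 (-0.04 to 0.05), Psmb5 (-0.02 to 0.12), Psmb6 (-0.07 to 0.05), Psmb7 (-0.02 to 0.25), Psmc1 (-0.17 to 0.01), Psmc3 (-0.13 to 0.02), Psmc4 (-0.03 to 0.29), Psmc6 (-0.01 to 0.18), Psmd5 (-0.17 to 0.01), Psme1 (-0.29 to 0.04) and Psmg4 (-0.03 to 0.11). Psmd1 ran from -0.20 to 0.00 and Psmd3 from -0.40 to -0.03, and Psmd5 was -0.20 without control 2 and Ghrh-KO 5. No paired analysis was possible because the replicate numbers of the genotypes, 1 to 3 and 4 to 6, share none. With 3 arrays per genotype, the 95% interval reached 2.42-fold to either side of the estimate for Psmb8, 2.17-fold for Psmb9 and 1.85-fold for Psmb10.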

Other observations

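No marker of another cell type in liver was called between the genotypes, although some lay apart. Of 9 endothelial markers tested, 0 were called and the median change was 0.08, and of 9 stellate cell or fibroblast markers 0 were called with a median of 0.21 and 8 positive differences. Of 9 hepatocyte markers tested 0 were called (median -0.05). Neutrophil and cholangiocyte markers were mostly near background, with 2 of 8 and 3 of 6 tested and 0 called in either list. Genotypes did not overlap for Pdgfrb, a receptor of stellate cells and other mesenchymal cells (0.90, adjusted p = 0.0884 from limma), for Tie1, a receptor of endothelium (-0.61, adjusted p = 0.174 from limma), and for Sox9, a factor of bile duct cells (-0.54, adjusted p = 0.140 from limma). The same held for the endothelial marker Lyve1, the hepatocyte markers Alb, Ttr and Pck1 and the macrophage marker Cd68, all higher in Ghrh-KO mice. Over all genes tested the share without overlap was 28.4%. It was 22.2% of the endothelial, 33.3% of the hepatocyte and 33.3% of the cholangiocyte markers tested. For stellate cell or fibroblast markers it was 11.1%, and for macrophage markers 8.33%. The interferon-inducible genes did not all follow the immunoproteasome: Gbp2, a guanylate-binding protein, read 6.66, 4.82 and 4.98 in controls and 8.23, 7.34 and 8.55 in Ghrh-KO mice (2.55, SE 0.53, adjusted p = 0.0727 from limma), with no overlap, whereas Iigp1, an interferon-inducible GTPase, read 12.62, 11.52 and 11.63 in controls and 11.35, 9.53 and 11.17 in Ghrh-KO mice (-1.24, SE 0.51, adjusted p = 0.267 from limma). Both were named after their values were seen. Of the 21 proteasome genes with several tested probe sets, 6 (Psma1, Psma3, Psmb4, Psmc4, Psmd6 and Psmf1) had probe sets whose changes differed in sign.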
